A study of Mus musculus with 19 samples.

Results

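The contacts of the Lmbr1 gene body with the gene desert between Shh and Lmbr1 were described in 9 capture Hi-C maps of mouse chromosome 5. Capture Hi-C ligates DNA ends that lie close together in fixed nuclei, pulls out a chosen region with probes and sequences both ends, so that each read pair counts as 1 contact. The body was taken as the 14 bins of 10 kb from 29.56 to 29.70 Mb (mm9 build), with the ZRS in the bin from 29.64 to 29.65 Mb. The desert was taken as the 71 bins from 28.81 to 29.52 Mb. Each body bin paired with all desert bins gives a stripe of 71 bin pairs. The 14 stripes and the 91 pairs of different bins within the body come to 1085 of the 39340 possible pairs of the 280 bins mapped. Positions set these members, not contact values, and the bins of the Shh promoter (28.78 to 28.80 Mb) were left out. Body bins are named by their distance from the ZRS bin, from bin -80 kb at the end nearest to Shh to bin 50 kb at the far end, and the ZRS bin is bin 0 kb. Desert bins are named by their distance from the Shh promoter bin, from 20 to 720 kb.

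The Shh gene makes Sonic hedgehog, a secreted signal that sets the pattern of digits in the limb bud and of cell types in the neural tube. Its limb enhancer, the ZRS, lies far from it within an intron of Lmbr1, a gene that encodes a membrane protein. Such distant pairs commonly share a domain, a stretch of chromatin whose parts contact each other more than they contact their surroundings. CTCF is a DNA-binding protein that halts the loop-extruding cohesin complex, and it is found at many domain borders and loop anchors.

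All embryos were at day E10.5, and 19 samples were merged into 1 map per group. The wild type limb bud group (3 samples) and the wild type midbrain group (2 samples) are C57BL/6. Wild type embryonic stem (ES) cells, the undifferentiated cells of the early embryo in culture, are of the G4 line (2 samples). All mutants are G4, with 2 samples each. The series design calls these technical replicates and the wild type samples biological ones. Limb buds carry ΔCTCF i4i5, ΔCTCF i4i5ZRS, ΔCTCF i4i5ZRSreg, ΔZRSreg or Lmbr1Δprom/Δprom, and midbrain carries ΔCTCF i4i5ZRS. By their names these are deletions of CTCF sites i4 and i5, of these with a CTCF site at the ZRS, of i4 and i5 with an element ZRSreg, of ZRSreg alone, and of the Lmbr1 promoter on both alleles. The labels give no zygosity for the other deletions and no bounds for any. Every mutant is of another strain than its wild type map, and ES cells are of another strain than limb, so strain cannot be told apart from genotype or from cell type there. Contact maps hold no expression, and the labelled tissues were not checked against marker genes.

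The maps hold from 1177173 (limb ΔCTCF i4i5) to 3218492 (ES cells) contacts. The stripes hold from 25675 to 77938 of them, with a median of 23 contacts per stripe pair in limb ΔCTCF i4i5 and of 36 to 65 in the other maps. Levels are observed over expected, the balanced signal of a pair over the mean of its own map at that separation, so that 1 is the average of the region. Because a group is 1 merged map, replicate errors could not be had and nothing was tested. Ranges in parentheses are 95% counting intervals, which cover counting error only, since read pairs are not independent molecules, and which compare these libraries, not the conditions. Balancing gives every bin the same total in a map, so a bin with less signal on one side has more elsewhere.

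The Lmbr1 promoter is the only deleted element whose sequence the reference tables used here hold. It is shown for the map that lacks it, and the stretch that was deleted may be longer or shorter. The sequence holds the 219 bases before the annotated Lmbr1 start, from RefSeq on GRCm38.p6, another build than that of the maps (chr5:29378422-29378640, minus strand). Capitals mark CG pairs.
Lmbr1 upstream: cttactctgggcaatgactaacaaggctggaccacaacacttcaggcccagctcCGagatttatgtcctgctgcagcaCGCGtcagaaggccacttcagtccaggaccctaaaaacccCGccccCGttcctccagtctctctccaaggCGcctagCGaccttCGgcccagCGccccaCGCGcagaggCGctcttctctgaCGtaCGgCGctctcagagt
It holds 15 CG pairs against a median of 5 in 32851 promoter windows of the same length, and no match to CCCTC on either strand (GAGGG when read on this strand), letters that 55.3% of those windows hold.

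The body met the desert above the average of the region in all 9 maps. The mean over all stripe pairs was 1.57 in wild type limb (1.55 to 1.58), 1.67 in wild type midbrain (1.65 to 1.69) and 1.77 in ES cells (1.75 to 1.79). It was 1.57 in limb ΔZRSreg and 1.57 in limb Lmbr1Δprom/Δprom. It was 1.31 in limb ΔCTCF i4i5 (1.28 to 1.33), 1.37 in limb ΔCTCF i4i5ZRS, 1.37 in limb ΔCTCF i4i5ZRSreg and 1.53 in midbrain ΔCTCF i4i5ZRS (1.51 to 1.54). The 3 limb maps with deleted CTCF sites thus lie below all the others, and the midbrain map with deleted sites lies below its own wild type.

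**Figure D1:**
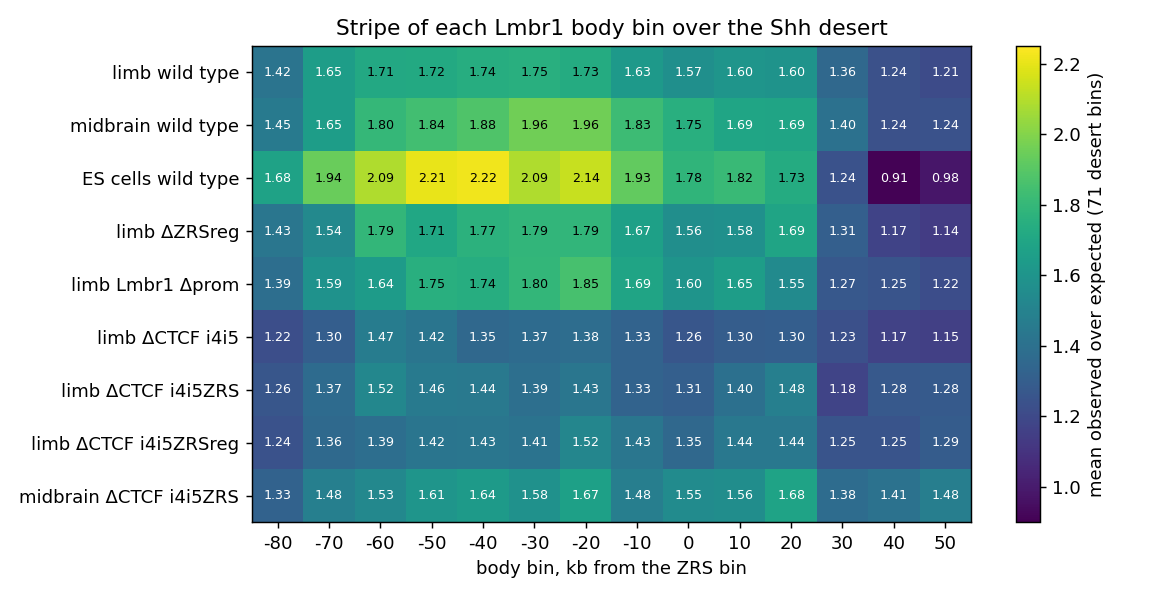
Mean observed over expected of each body bin with the 71 desert bins (colour and printed value), with 1 row per map and the body bins in columns by their distance in kb from the ZRS bin. The values run from 0.91 in ES cells to 2.22 in the same map, and the 3 upper bins are the lowest of the 14 in ES cells and in the limb and midbrain maps of wild type.

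The lower end of the body gave strong stripes that were weaker at the outermost bin. At bin -80 kb the level was 1.42 in wild type limb, 1.45 in midbrain, 1.68 in ES cells, 1.43 in ΔZRSreg and 1.39 in Lmbr1Δprom/Δprom, against 1.22, 1.26 and 1.24 in limb ΔCTCF i4i5, i4i5ZRS and i4i5ZRSreg and 1.33 in midbrain ΔCTCF i4i5ZRS. At bin -70 kb the levels were, in the same order of maps, 1.65, 1.65, 1.94, 1.54, 1.59, 1.30, 1.37, 1.36 and 1.48. At both bins each limb map with deleted CTCF sites lay below each other limb map. The next bin toward Shh, just outside the body as defined, had 1.51 in wild type limb and 1.27 in limb ΔCTCF i4i5, so the stripe does not begin at this edge.

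The strongest stripes came from the 5 bins between -60 kb and -20 kb. Bin -60 kb had 1.71 in wild type limb, 1.80 in midbrain, 2.09 in ES cells, 1.79 in ΔZRSreg, 1.64 in Lmbr1Δprom/Δprom, 1.47, 1.52 and 1.39 in the 3 limb CTCF deletions in the order above and 1.53 in midbrain ΔCTCF i4i5ZRS, and was the highest in ΔZRSreg, limb ΔCTCF i4i5 and limb ΔCTCF i4i5ZRS. Bin -50 kb had 1.72, 1.84, 2.21, 1.71, 1.75, 1.42, 1.46, 1.42 and 1.61 in that order. In 8 of the 9 maps the highest of the 14 stripes lies among these 5 bins. Bin -40 kb, the highest in ES cells, had 1.74, 1.88, 2.22, 1.77, 1.74, 1.35, 1.44, 1.43 and 1.64. Bin -30 kb, the highest in wild type limb, had 1.75, 1.96, 2.09, 1.79, 1.80, 1.37, 1.39, 1.41 and 1.58. Bin -20 kb had 1.73, 1.96, 2.14, 1.79, 1.85, 1.38, 1.43, 1.52 and 1.67, and was the highest in midbrain, in Lmbr1Δprom/Δprom and in limb ΔCTCF i4i5ZRSreg. Many of these neighbours overlap in their counting intervals, as bins -40 kb (1.69 to 1.79) and -30 kb (1.701 to 1.803) do in wild type limb, so the order among them is not set by these counts.

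The ZRS bin gave a middling stripe. Its level was 1.57 in wild type limb (1.53 to 1.62), 1.75 in midbrain, 1.78 in ES cells, 1.56 in ΔZRSreg, 1.60 in Lmbr1Δprom/Δprom, 1.26, 1.31 and 1.35 in the limb CTCF deletions and 1.55 in midbrain ΔCTCF i4i5ZRS. It ranked from 7 to 10 among the 14 bins in the 9 maps. Bin -10 kb had 1.63, 1.83, 1.93, 1.67, 1.69, 1.33, 1.33, 1.43 and 1.48 in the same order of maps, and bin 10 kb had 1.60, 1.69, 1.82, 1.58, 1.65, 1.30, 1.40, 1.44 and 1.56. Both lay above the ZRS bin in limb, in ES cells and in every limb mutant, while in both midbrain maps 1 of them lay below it. Some of these gaps are small, as 1.58 against 1.56 for bin 10 kb in ΔZRSreg. In wild type limb bin 10 kb lies inside the counting interval of the ZRS bin, so their order is not set by these counts. Bin 20 kb had 1.60 in wild type limb, 1.69 in midbrain, 1.73 in ES cells, and 1.68 in midbrain ΔCTCF i4i5ZRS, where it was the highest of the 14.

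The 3 upper bins, which lie toward the far end of the body from Shh, gave the weakest stripes in the 5 maps with intact CTCF sites. Bin 30 kb had 1.36 in wild type limb, 1.40 in midbrain, 1.24 in ES cells, 1.31 in ΔZRSreg, 1.27 in Lmbr1Δprom/Δprom, 1.23, 1.18 and 1.253 in the limb CTCF deletions and 1.38 in midbrain ΔCTCF i4i5ZRS. Bin 40 kb had 1.24, 1.24, 0.909, 1.17, 1.253, 1.17, 1.28, 1.249 and 1.41 in that order. Bin 50 kb had 1.21, 1.24, 0.981, 1.14, 1.22, 1.154, 1.28, 1.29 and 1.48. At these last bins the limb maps with and without CTCF deletions overlap, and ES cells stand below all others. The lowest of the 14 stripes was bin 50 kb in wild type limb, ΔZRSreg, Lmbr1Δprom/Δprom and limb ΔCTCF i4i5, bin 40 kb in wild type midbrain and ES cells, and bin 30 kb in limb ΔCTCF i4i5ZRS. In limb ΔCTCF i4i5ZRSreg and midbrain ΔCTCF i4i5ZRS it was bin -80 kb, at the other end. The split of the body into 11 lower and 3 upper bins was made after these values were seen. The first bin outside, at 60 kb, had 0.951 in wild type limb and 1.40 in midbrain ΔCTCF i4i5ZRS.

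The stripes were more alike in the 4 maps with CTCF deletions. The highest stripe over the lowest was 1.45 in wild type limb, 1.58 in midbrain, 2.44 in ES cells, 1.57 in ΔZRSreg and 1.52 in Lmbr1Δprom/Δprom. It was 1.27 in limb ΔCTCF i4i5, 1.29 in i4i5ZRS, 1.23 in i4i5ZRSreg and 1.27 in midbrain ΔCTCF i4i5ZRS. The 4 values with deleted sites lie below the other 5. The mean of the 3 upper bins over that of the 11 lower bins was 0.769 in wild type limb and 0.531 in ES cells, and from 0.885 to 0.914 in the 4 maps with deletions.

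Along the desert, the body level over expected was highest next to Shh and declined toward Lmbr1. The desert bins next to Shh lie farthest from the body, and contacts themselves were fewer there. In wild type limb the body had 604 contacts with the desert bin at 20 kb and 2331 with that at 720 kb. The mean level over the 14 body bins was highest at the first desert bin, 20 kb from the promoter bin, in all 9 maps. It was 4.09 in wild type limb, 4.69 in midbrain, 4.54 in ES cells, 3.71 in ΔZRSreg and 3.83 in Lmbr1Δprom/Δprom, against 2.95, 2.92, 2.95 and 3.04 in the 4 maps with CTCF deletions. All 4 lie below the other 5 at this bin, which is the edge of the desert as defined. The running mean of 5 bins peaked at 40 kb in every map, at 3.22 in wild type limb, 3.33 in midbrain, 3.47 in ES cells, 3.06 in ΔZRSreg, 3.00 in Lmbr1Δprom/Δprom, 2.32, 2.39 and 2.46 in the limb CTCF deletions and 2.70 in midbrain ΔCTCF i4i5ZRS. It first went below 1 between 610 kb (limb ΔCTCF i4i5) and 690 kb from the promoter bin.

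**Figure D2:**
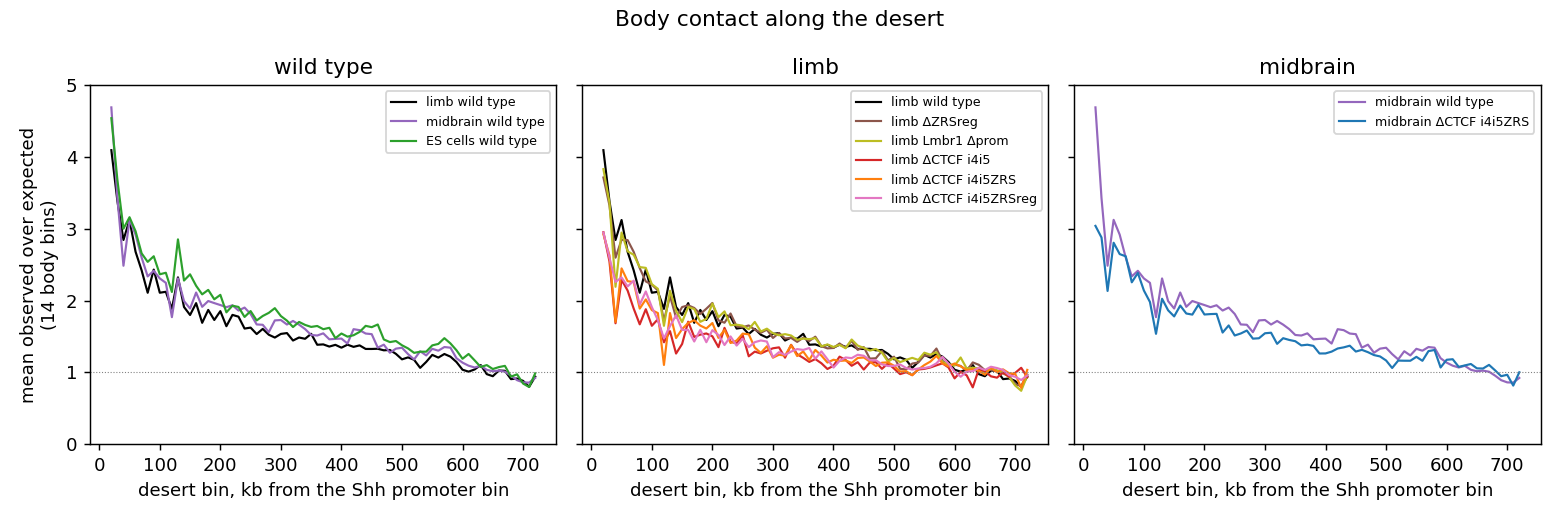
Mean observed over expected of the 14 body bins with each desert bin, against the distance of the desert bin from the Shh promoter bin in kb, for the wild type maps, the limb maps and the midbrain maps (lines). The lines start between 2.92 and 4.69 and come down to about the average of the region, 1, before the end of the desert, and the 4 maps with CTCF deletions start lowest, from 2.92 to 3.04.

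Single body bins mostly had this shape, less so in some maps. In wild type limb 13 of the 14 stripes peaked at 40 kb and 1 at 50 kb in the running mean, with peak levels from 2.13 (bin 50 kb) to 3.82 (bin -20 kb). The part of the desert next to Shh over the part next to Lmbr1 (24 and 23 bins) was 1.82 at bin 50 kb and 2.24 at bin -10 kb. In ES cells bin -50 kb peaked at 4.71 and was above 1 at 69 of its 71 desert bins, while bin 40 kb peaked at 1.97 and was above 1 at 16. Of the 14 stripes 14 peaked at 40 kb in ES cells, 13 in wild type midbrain, 12 in ΔZRSreg, 11 in Lmbr1Δprom/Δprom, 12 in limb ΔCTCF i4i5, 10 in i4i5ZRS, 10 in i4i5ZRSreg and 7 in midbrain ΔCTCF i4i5ZRS. The farthest peaks lay at 80 kb in limb ΔCTCF i4i5, at 120 kb in i4i5ZRSreg and at 70 kb in the other maps with a peak beyond 50 kb. In limb ΔCTCF i4i5 the peak levels ran from 1.98 to 2.71.

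The same body bins were then set against windows on other sides. With the 71 bins above the body (29.74 to 30.45 Mb), which mirror the separations of the desert, the mean was 0.723 in wild type limb, 0.667 in midbrain, 0.539 in ES cells, 0.704 in ΔZRSreg and 0.714 in Lmbr1Δprom/Δprom. It was 0.877, 0.833, 0.847 and 0.765 in limb ΔCTCF i4i5, i4i5ZRS, i4i5ZRSreg and midbrain ΔCTCF i4i5ZRS. Body bins thus favoured the desert over the mirrored side by 2.17 times in wild type limb, 2.503 in midbrain and 3.28 in ES cells, and by 1.49, 1.64, 1.62 and 1.99 times in the 4 maps with deletions. The preference was smaller in the upper bins. The windows mirror each other for the body as a whole, not for single bins. An upper bin lies nearer to the window above than to the desert, and the part of this was not tested. At bin 50 kb it was 1.13 times in wild type limb, 1.04 in ΔZRSreg and 1.58 in midbrain ΔCTCF i4i5ZRS.

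**Figure D3:**
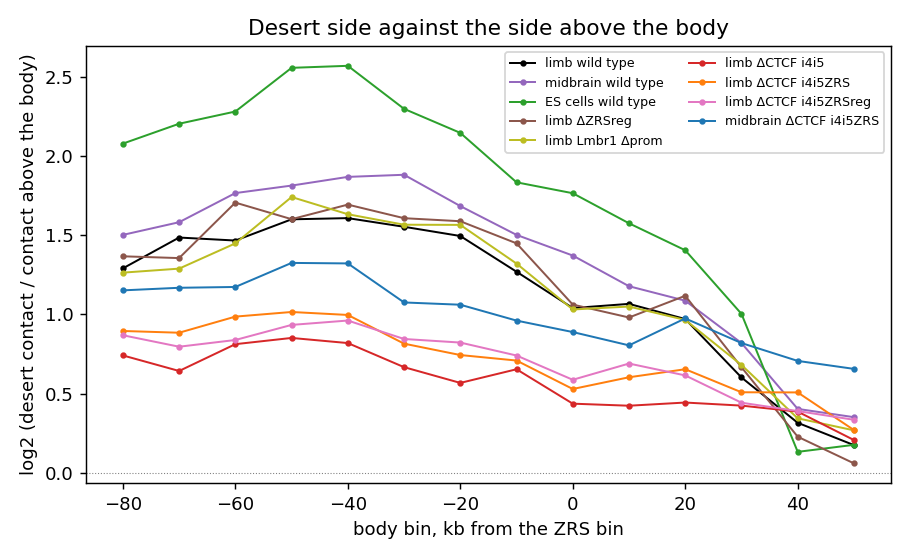
The log2 of the desert level over the level with the mirrored window above the body (points joined by lines, 1 line per map). Body bins are placed by their distance in kb from the ZRS bin. The window mirrors the separations of the desert over the whole body, not bin by bin. Taken over the whole body the preference is 1.12 in wild type limb, 1.71 in ES cells and 0.57 in limb ΔCTCF i4i5 on this scale, all points lie above 0, and the lines come together in the upper bins.

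In the mean, pairs within the body were below the average of the region in every map. Their mean was 0.729 in wild type limb (SD 0.088 over 91 pairs), 0.694 in midbrain, 0.749 in ES cells, 0.736 in ΔZRSreg and 0.724 in Lmbr1Δprom/Δprom. It was 0.822, 0.874 and 0.866 in the limb CTCF deletions and 0.828 in midbrain ΔCTCF i4i5ZRS. All 4 maps with deletions lie above the other 5. An exception among the pairs was that of the top 2 bins, 40 kb with 50 kb, at 1.08 in wild type limb (1.03 to 1.14) and 1.57 in ES cells (1.505 to 1.63). These 2 bins with the 12 others had 0.670 in wild type limb and 0.602 in ES cells, but 0.834, 0.871, 0.846 and 0.852 in the maps with deletions.

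**Figure D4:**
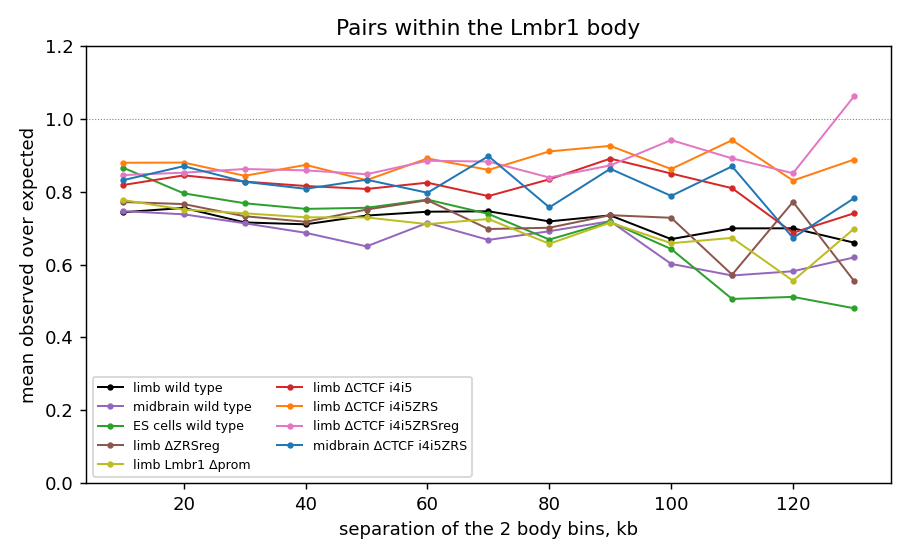
Mean observed over expected of pairs of body bins against their separation in kb (points joined by lines, 1 line per map). Pairs from 10 to 40 kb apart had 0.733 in wild type limb and from 0.827 to 0.870 in the 4 maps with CTCF deletions, and the points beyond 100 kb rest on 3 pairs or fewer.

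Comparison of wild type tissues asked whether the stripe differs with cell type. Midbrain over limb was 0.09 higher on the log2 scale (0.07 to 0.11), with 59 of the 71 desert bins higher. The highest ratio was 0.18 at bin -20 kb and the smallest value 0.00 at bin 40 kb, so the gain lies in the middle of the body, ZRS bin included (0.15, 0.09 to 0.22). No member pair passed a 1.5-fold difference of the mean over 3 by 3 bins in either direction, where 1.54% of the 19446 such pairs at separations from 50 to 880 kb were lower and 0.519% higher. At the lower limit of a ratio of 5 to 4, 1 member was lower and 20 higher, where 9.22% and 6.08% of all pairs were. The pair of highest ratio was bin -60 kb with the desert bin at 450 kb, at 1.77 in midbrain and 1.27 in limb, and that of lowest was bin -80 kb with that at 30 kb, at 2.57 and 3.33.

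ES cells over limb differed by place along the body. The mean was 0.17 higher (0.15 to 0.19), with all 11 lower bins higher, from 0.12 to 0.36, and the 3 upper bins lower, at -0.13, -0.44 and -0.30. The highest ratio was at bin -50 kb and the lowest at bin 40 kb. Of the members 6 were 1.5-fold higher and 18 lower, where 2.9% and 11.3% of all pairs were, so neither share stands above the background. The 18 lower ones lie at bins 40 kb (6) and 50 kb (12), and the 6 higher ones at -60 kb and -50 kb. At the lower limit of a ratio of 5 to 4, 263 members were higher (26.5%) and 79 lower, where 13.8% and 24.8% of all pairs were. The extremes were bin 50 kb with the desert bin at 410 kb, at 0.620 in ES cells and 1.05 in limb, and bin -50 kb with that at 450 kb, at 2.14 and 1.36. On the mirrored side every body bin was lower in ES cells, by 0.42 in the mean (-0.46 to -0.39).

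The next question was whether the stripe differs where CTCF sites are deleted. Limb ΔCTCF i4i5 over wild type limb was -0.26 (-0.29 to -0.24), a difference of -16.7%, with 65 of the 71 desert bins lower. Limb ΔCTCF i4i5ZRS was at -0.20 (-0.22 to -0.17) and limb ΔCTCF i4i5ZRSreg at -0.19 (-0.21 to -0.17). All 3 are divided by the same wild type map, so they are not independent of each other. Against limb ΔZRSreg, which is of the G4 strain too, limb ΔCTCF i4i5ZRSreg was also at -0.19 (-0.21 to -0.17).

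The lower desert contact was unequal along the body and the desert. In limb ΔCTCF i4i5 the 11 lower bins ran from -0.36 to -0.21 and the 3 upper bins from -0.14 to -0.07 (bin 50 kb). The lowest ratio was at bin -40 kb (-0.36, -0.44 to -0.28), where 1.74 in wild type stood against 1.35, and the ZRS bin was at -0.32. In limb ΔCTCF i4i5ZRS and i4i5ZRSreg the lowest ratio was at bin -30 kb (-0.33 and -0.31), and bins 40 kb and 50 kb were not lower (0.05 and 0.08, and 0.02 and 0.10). By part of the desert, limb ΔCTCF i4i5 was at -0.36 in the 24 bins next to Shh, -0.25 in the middle 24 and -0.09 in the 23 next to Lmbr1. The same parts gave -0.27, -0.20 and -0.03 in i4i5ZRS and -0.27, -0.18 and -0.03 in i4i5ZRSreg, the last of each within counting error of 0.

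**Figure D5:**
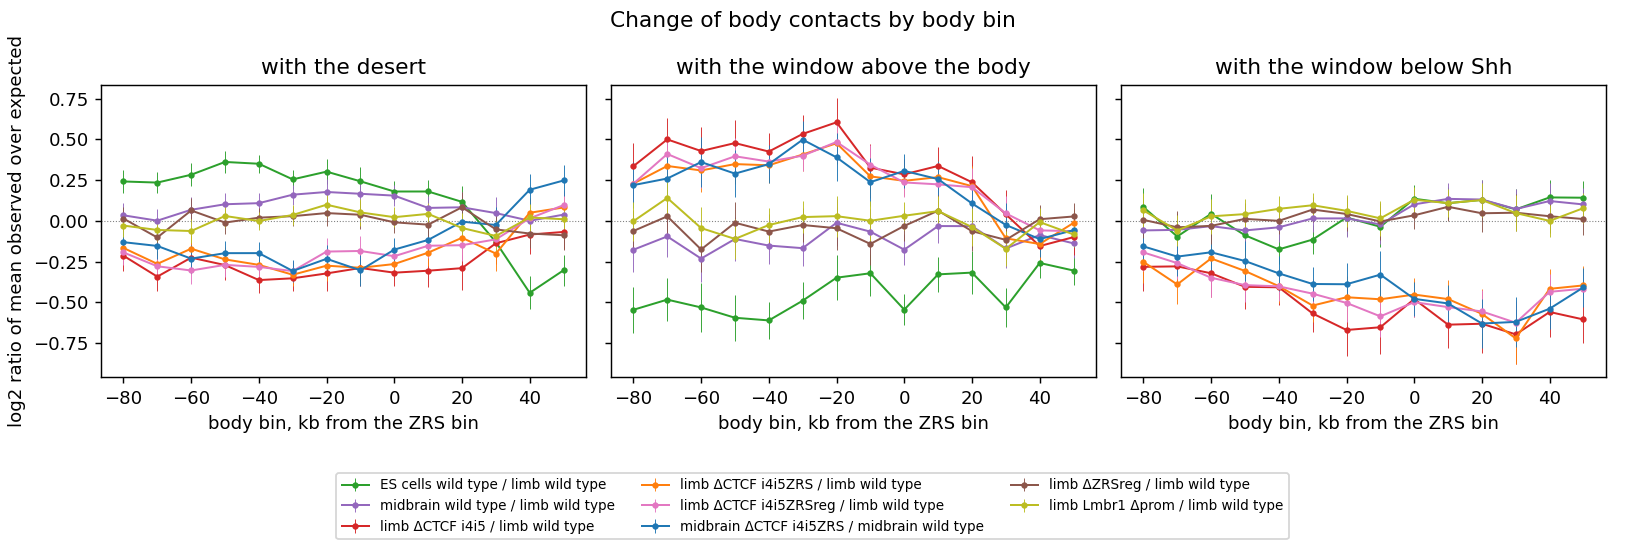
Log2 ratio of mean observed over expected between maps for each body bin, by its distance in kb from the ZRS bin, with the desert, with the window above the body and with the window below Shh (points with 95% counting intervals, 1 line per comparison). The 4 lines of CTCF deletions lie below 0 with the desert in the lower bins (down to -0.36), above 0 at the 11 lower bins with the upper window (up to 0.60) and below 0 at all 14 bins with the window below Shh, and those of ΔZRSreg and Lmbr1Δprom/Δprom run from -0.10 to 0.10 with the desert.

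Pair by pair, 35 members were 1.5-fold lower and 0 higher in limb ΔCTCF i4i5, where 0.874% of all pairs were lower and 3.78% higher. In i4i5ZRS 19 were lower and 1 higher (0.622% and 1.94% of all pairs), and in i4i5ZRSreg 4 were lower and 0 higher (0.339% and 2.11%). The share of members lower was thus 3.52%, 1.91% and 0.402%, the last close to its background. At a ratio of 5 to 4, 306 members were lower and 11 higher in i4i5, where 5.95% and 15.3% of all pairs were. The counts were 174 and 24 in i4i5ZRS (4.84% and 11.7% of all pairs) and 170 and 12 in i4i5ZRSreg (3.66% and 11.8%). The share of members lower was then 30.8%, 17.5% and 17.1%. The lowest pairs all lay next to Shh, as bin -80 kb with the desert bin at 30 kb in i4i5 (1.81 against 3.33), bin -10 kb with that at 30 kb in i4i5ZRS (2.31 against 3.88) and bin -30 kb with that at 20 kb in i4i5ZRSreg (3.00 against 4.87). The highest lay at the other end, all at bin 50 kb with the desert at 690 or 700 kb.

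The 3 limb maps with CTCF deletions were also set against the 3 other limb maps as groups, a comparison chosen after the stripe values were seen. All 3 lay below all 3 others at 623 members (62.7%), where 10.4% of all pairs did, and above at 50 (5.03%), where 18.3% did. Means over 3 by 3 bins share bins with their neighbours, so these pairs are not independent. At either end of the body they take in a bin outside it. By body bin the count lower was 61 of 71 at bins -50 kb and -20 kb, 54 at the ZRS bin, 34 at 20 kb, 19 at 30 kb, 8 at 40 kb and 1 at 50 kb. The count thus declines over the upper bins.

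Recovered contacts of limb ΔCTCF i4i5, the shallowest map, were low at the upper bins. Over the mean of each map they were 0.819, 0.411, 0.532, 0.705 and 0.823 from bin 10 kb to bin 50 kb, against 1.02, 0.591, 0.686, 0.936 and 0.958 in wild type limb. Bin 20 kb had the lowest ratio of all 280 bins between these maps. Without these 5 bins the stripe ratio was -0.30. Their part in the values at those bins was not tested.

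The midbrain map with the same deletion as limb ΔCTCF i4i5ZRS had a smaller mean difference. As in that limb map the sign turned at the top of the body, in midbrain beyond counting error. Midbrain ΔCTCF i4i5ZRS over wild type midbrain was -0.13 (-0.15 to -0.11), with 58 of 71 desert bins lower. The lowest ratio was -0.31 at bin -30 kb (1.58 against 1.96), and the ZRS bin was at -0.18. Bins 40 kb and 50 kb were higher by 0.19 (0.10 to 0.29) and 0.25 (0.15 to 0.34). Of the members 6 were 1.5-fold lower and 2 higher, where 0.761% and 2.19% of all pairs were. At a ratio of 5 to 4, 114 were lower and 46 higher, where 6.45% and 11.8% of all pairs were. The lowest was the ZRS bin with the desert bin at 30 kb, at 2.18 against 4.00, and the highest was bin 40 kb with that at 600 kb, at 1.08 against 0.696. Whether midbrain and limb differ in this response was not tested.

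The window above the body went the other way from the desert in the 4 maps with CTCF deletions. The log2 ratio was 0.28 in limb ΔCTCF i4i5 (0.24 to 0.31), 0.21 in i4i5ZRS, 0.23 in i4i5ZRSreg and 0.20 in midbrain ΔCTCF i4i5ZRS. The largest was 0.60 at bin -20 kb in limb ΔCTCF i4i5, while bin 40 kb there was at -0.15. With the 71 bins below Shh (28.06 to 28.77 Mb) wild type limb had 1.68 and midbrain 1.73, above their desert levels of 1.57 and 1.67. That window lies farther from the body than the desert, so its levels are over the expected values of other separations. The part of separation in this was not tested. The maps with deletions had 1.17, 1.24, 1.23 and 1.31 there. Those log2 ratios were -0.52, -0.44, -0.45 and -0.40, below 0 at all 14 body bins in each of the 4, so the difference below Shh was larger than that with the desert. The upper bins took part here, with the lowest ratio at 30 kb in all 3 limb maps (-0.70, -0.72 and -0.63).

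Bins just above the body behaved unlike it. The 14 bins from 29.70 to 29.84 Mb met the desert at 0.691 in wild type limb, 0.812 in midbrain, 0.729 in ES cells, 0.674 in ΔZRSreg and 0.803 in Lmbr1Δprom/Δprom. They met it at 0.877, 0.894 and 0.899 in the limb CTCF deletions and at 1.06 in midbrain ΔCTCF i4i5ZRS. In each map with a deletion all 14 bins were above the matching wild type, with log2 ratios of 0.34, 0.37, 0.38 and 0.39. In Lmbr1Δprom/Δprom all 14 were higher as well, by 0.22 (0.19 to 0.25), although the body's own stripe was at 0.00. Within the body, bins 40 kb and 50 kb were above wild type too in limb ΔCTCF i4i5ZRS, i4i5ZRSreg and midbrain ΔCTCF i4i5ZRS. The bins higher beyond counting error were 0 in limb i4i5ZRS, 1 in i4i5ZRSreg and 2 in midbrain. Both were below wild type in limb ΔCTCF i4i5, by the smallest differences of the 14 bins. Of those 14, 12 were lower beyond counting error.

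Within the body the CTCF deletions had more contact than wild type. The log2 ratio was 0.17 in limb ΔCTCF i4i5 (0.13 to 0.22), 0.26 in i4i5ZRS, 0.25 in i4i5ZRSreg and 0.25 in midbrain ΔCTCF i4i5ZRS, with 73, 84, 85 and 83 of 91 pairs higher. On recovered counts without balancing the sign turned for i4i5, at -0.061, and the value of i4i5ZRSreg was 0.11. The top 2 bins with the 12 others were higher by 0.32, 0.38, 0.34 and 0.40. Over distance the ratio was 0.25 at 10 to 40 kb and 0.36 at 90 to 130 kb in i4i5ZRS.

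The limb maps ΔZRSreg and Lmbr1Δprom/Δprom had the mean stripe at the wild type level within counting error. Both are of another strain than wild type limb, so strain cannot be told apart from deletion here. Limb ΔZRSreg over wild type limb was 0.00 (-0.02 to 0.02) and Lmbr1Δprom/Δprom 0.00 (-0.02 to 0.02), intervals that leave out other sources of error. By body bin ΔZRSreg ran from -0.10 (bin -70 kb) to 0.08 (bin 20 kb) and Lmbr1Δprom/Δprom from -0.09 (bin 30 kb) to 0.10 (bin -20 kb). No member passed 1.5-fold in either map, where 0.221% of all pairs were lower and 0.123% higher in ΔZRSreg, and 0.242% and 0.237% in Lmbr1Δprom/Δprom. At a ratio of 5 to 4 the members lower and higher were 4 and 1 in ΔZRSreg (2.94% and 2.27% of all pairs) and 7 and 2 in Lmbr1Δprom/Δprom (3.45% and 3.57%). In ΔZRSreg the lowest pair was bin 40 kb with the desert bin at 130 kb (1.40 against 1.78) and the highest bin -10 kb with that at 70 kb (2.96 against 2.36). In Lmbr1Δprom/Δprom they were bin -70 kb with that at 40 kb (2.59 against 3.36) and bin 50 kb with that at 210 kb (1.48 against 1.14). The ZRS bin was at -0.01 and 0.02. Its recovered contacts over the map mean were 1.195 in ΔZRSreg and 1.12 in limb ΔCTCF i4i5ZRSreg against 1.37 in wild type limb, and the part of this in its values was not tested. The body was at 0.01 and -0.01 for pairs within it.

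The last comparisons set maps with a deletion in common against each other. Limb ΔCTCF i4i5ZRS over limb ΔCTCF i4i5 was 0.07 higher (0.04 to 0.10), with 52 of 71 desert bins higher. The highest ratio was 0.19 at bin 20 kb, one of the thinly covered bins of i4i5, and the lowest -0.06 at bin 30 kb. No member was 1.5-fold lower and 1 was higher, where 1.09% and 0.427% of all pairs were. At a ratio of 5 to 4, 2 were lower and 52 higher, where 7.17% and 4.14% of all pairs were. The pair past 1.5-fold was bin 30 kb with the desert bin at 610 kb, at 1.11 against 0.681 on 275 and 95 contacts, and the lowest pair was bin 40 kb with that at 200 kb, at 1.23 against 1.55. Without balancing the stripe value was 0.14. Limb ΔCTCF i4i5ZRSreg and limb ΔZRSreg differ by the loss of i4 and i5. In the first over the second, 59 of 71 desert bins were lower, the lowest ratio was -0.37 at bin -60 kb, bin 50 kb was higher by 0.18, and 1 member was 1.5-fold lower and 0 higher, where 0.267% and 3.11% of all pairs were. At a ratio of 5 to 4, 194 were lower and 20 higher, where 3.81% and 14.3% of all pairs were. The lowest pair was bin -30 kb with the desert bin at 20 kb, at 3.00 against 4.99, and the highest was bin 40 kb with that at 690 kb, at 1.06 against 0.745. Without balancing the stripe value of this pair of maps was -0.29.

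Counts in either direction at 1.5-fold depend on the averaging and on depth, in the members and in all pairs alike. On single pairs, with no averaging over 3 by 3 bins, 70 members passed in midbrain over limb (18.1% of all pairs), 165 in ES cells (26.7%), 217, 142 and 117 in limb ΔCTCF i4i5, i4i5ZRS and i4i5ZRSreg (23.7%, 19.4% and 16.6%), 60 in ΔZRSreg (14.6%) and 50 in Lmbr1Δprom/Δprom (14.3%). They were 129 in midbrain ΔCTCF i4i5ZRS (21.4%), 148 in i4i5ZRSreg over ΔZRSreg (18.2%) and 173 in i4i5ZRS over i4i5 (23.6%). As a share, the members ran from 5.03% in Lmbr1Δprom/Δprom to 21.8% in limb ΔCTCF i4i5, below that of all pairs in each of the 10 comparisons. By direction, 190 of the 217 in limb ΔCTCF i4i5 were lower (19.1%, against 10.53% of all pairs). The share of members lower was 12.1% in limb i4i5ZRS and 9.86% in i4i5ZRSreg, against 8.74% and 6.42% of all pairs. It was 10.4% in i4i5ZRSreg over ΔZRSreg, against 6.58%, but 8.55% in midbrain ΔCTCF i4i5ZRS, against 9.75%. With all maps thinned to the shallowest, 3 by 3 means gave 2 members in midbrain over limb (4.79% of all pairs), 48 in ES cells (16.2%), 30, 22 and 11 in the limb CTCF deletions (6.31%, 5.09% and 5.03%), 0 in ΔZRSreg (2.5%) and 1 in Lmbr1Δprom/Δprom (2.83%). They were 17 in midbrain ΔCTCF i4i5ZRS (5.53%), 12 in i4i5ZRSreg over ΔZRSreg (6.33%) and 2 in i4i5ZRS over i4i5 (2.12%). The members' share there was at most 4.83%, in ES cells, and again below that of all pairs in each comparison.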

How the data were processed

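The authors deposited a balanced (KR) signal for each pair of 10 kb bins, with the libraries of a group merged, as the file names say. The submitters' processing notes list Bowtie2 2.3.4.1, cutadapt 1.15, SAMtools, Juicer and the mm9 build. Removal of duplicate pairs is not given in the sources used here. Per the labels' protocols, tissue was treated with collagenase, fixed, cut with DpnII and enriched with SureSelect probes.

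From these files observed over expected was computed with zeros included. Each value is a whole count divided by 2 bin factors, so contact counts could be recovered (100% of values within 0.01 of a whole number in each map). Intervals are exact Poisson intervals of the effective count, and for ratios a log-scale approximation. The steps were tested on simulated maps, where a changed stripe kept its direction and came out smaller than it was made. Python 3.11.15, numpy 2.4.6 and scipy 1.17.1 were used.

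Body bins start from 29560001 to 29690001 and desert bins from 28810001 to 29510001 on chromosome 5. The members, windows and lists were chosen with earlier results of these data known. The text names all 14 body bins, in each map the highest and lowest stripe and the desert peak, and for each pair of maps compared the extreme ratios by body bin and by member pair. A pair was called at 1.5-fold of its 3 by 3 bin mean, with 1.25-fold as an alternative. The lower and upper sets of body bins, the sets within the body, the coverage check and the grouping of limb maps were chosen after the values were seen. The series design calls the wild type samples biological and the mutant samples technical replicates. Of the wild type limb titles 2 carry the same library number, 1 ES cell title has another library suffix than its map, 1 ES cell sample is labelled E10.5, and 1 ΔZRSreg sample is labelled delta-RSreg.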

Additional observations from a re-analysis of the deposited data

How the results depend on the processing

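No paired analysis was possible because the samples of each group were merged before deposit, and for the same reason no sample could be left out. All values are log2 ratios or counts of members in the 10 comparisons, and where they moved the cause was not tested unless named. Thinning all maps to the shallowest, leaving out the ZRS bin and, for the 3 CTCF deletions of limb, the mean of the G4 maps ΔZRSreg and Lmbr1Δprom/Δprom (deletions themselves) as reference kept every stripe ratio inside its counting interval. With a median in place of the mean at each separation the stripe ratio was 0.22 for ES cells over limb, -0.36, -0.26 and -0.27 for limb i4i5, i4i5ZRS and i4i5ZRSreg over wild type, -0.18 for midbrain i4i5ZRS, -0.27 for i4i5ZRSreg over ZRSreg and 0.10 for i4i5ZRS over i4i5. Leaving members out of the expected value gave 0.20 for ES cells, -0.30, -0.22 and -0.21 for the limb CTCF deletions and -0.21 for i4i5ZRSreg over ZRSreg. Recovered counts without balancing gave 0.13 for midbrain over limb, 0.15 for ES cells, -0.36, -0.22 and -0.28 for the limb CTCF deletions, 0.028 for Lmbr1Δprom/Δprom, -0.17 for midbrain i4i5ZRS, -0.29 for i4i5ZRSreg over ZRSreg and 0.14 for i4i5ZRS over i4i5. The desert without its outer 100 kb gave 0.20 for ES cells, and the body without its 5 uppermost bins, an alternative added after seeing the data, -0.30 for limb i4i5.

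Deposited signal with no expected value has a different total in each map, so its ratios include that scale. The stripe was then at -0.38 for midbrain over limb (turned in sign), 0.15 for ES cells, -1.39, -0.84 and -0.36 for the limb CTCF deletions, -0.28 for ZRSreg, -0.10 for Lmbr1Δprom/Δprom, -0.19 for midbrain i4i5ZRS, -0.076 for i4i5ZRSreg over ZRSreg and 0.56 for i4i5ZRS over i4i5. Within the body it gave -0.41 for midbrain over limb, 0.39 for ES cells, -1.23 and -0.30 for limb i4i5 and i4i5ZRS (both turned in sign), 0.10 for i4i5ZRSreg, -0.051 for ZRSreg, 0.19 for Lmbr1Δprom/Δprom, 0.16 for midbrain i4i5ZRS, 0.15 for i4i5ZRSreg over ZRSreg and 0.94 for i4i5ZRS over i4i5.

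Within the body, counts without balancing gave -0.12 for ES cells and -0.061 for limb i4i5 (both turned in sign), 0.11 for i4i5ZRSreg, 0.065 for Lmbr1Δprom/Δprom (turned from a value within counting error of 0), 0.067 for i4i5ZRSreg over ZRSreg and 0.30 for i4i5ZRS over i4i5. Pairs 30 kb or more apart gave -0.0068 for ES cells (turned in sign) and 0.27 for i4i5ZRSreg over ZRSreg, and thinning gave 0.072 for ES cells and 0.31 for limb i4i5ZRS.

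Members called in either direction at the lower limit, a ratio of 5 to 4, were 21 in midbrain over limb, 342 in ES cells, 317, 198 and 182 in limb i4i5, i4i5ZRS and i4i5ZRSreg, 5 in ZRSreg, 9 in Lmbr1Δprom/Δprom, 160 in midbrain i4i5ZRS, 214 in i4i5ZRSreg over ZRSreg and 54 in i4i5ZRS over i4i5. On single pairs at 1.5-fold they were 70, 165, 217, 142, 117, 60, 50, 129, 148 and 173 in that order. After thinning they were 2 in midbrain over limb, 48 in ES cells, 11 in i4i5ZRSreg, 1 in Lmbr1Δprom/Δprom, 17 in midbrain i4i5ZRS, 12 in i4i5ZRSreg over ZRSreg and 2 in i4i5ZRS over i4i5. On single pairs and after thinning, with both directions counted together, members passed less often than all pairs in each comparison. At the ratio of 5 to 4 they passed more often in limb i4i5, i4i5ZRS and i4i5ZRSreg over wild type and in i4i5ZRSreg over ZRSreg. In the other comparisons they passed less often than all pairs. The shares of all pairs at that limit stand by direction with each comparison above. For ΔZRSreg and Lmbr1Δprom/Δprom over wild type limb, whose intervals hold 0, signs turned 5 times for the stripe and 5 times within the body over all alternatives, deposited signal included.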
